A study of Homo sapiens with 18 samples.

Results

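The mitochondrially encoded genes are the genes of the small circular genome inside mitochondria. They were taken as every row of the RNA-seq count table whose identifier starts with MT-, which gave 37 of 61267 genes, 13 mRNAs, 2 rRNAs and 22 tRNAs. The m6A peaks that overlap their exons on the same strand were added, 35 of 39708 deposited peaks. On the annotated strands, 28 of the 37 genes lie on the plus strand and 9 on the minus strand, which holds MT-ND6 and 8 tRNAs. The tRNA genes are 59 to 75 bases long, the mRNA genes 207 to 1812 bases and the rRNA genes 954 and 1559 bases.

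The series compared LoVo cells, an established human colorectal cancer line, of genotype METTL3 WT with LoVo cells of genotype METTL3 K513R, in which arginine stands in place of lysine in the subunit that writes m6A (N6-methyladenosine) on mRNA, to learn what methylation of METTL3 at that lysine does. Each genotype had 3 RNA-seq libraries, 3 MeRIP input libraries and 3 MeRIP IP libraries, 18 in all, with no treatment named. RNA-seq used total RNA after removal of rRNA. MeRIP-seq used poly(A) RNA cut into fragments, with a share set aside as input before an antibody to m6A pulled down the remainder. The sources used here do not give how the K513R cells were made, the number of clones or whether libraries of a group came from separate cultures, so p-values measure only the spread between these libraries, which may be technical.

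Human mitochondrial DNA is transcribed from both strands into long RNAs that carry many genes. The tRNAs sit between the mRNAs and rRNAs, and cutting the tRNAs out at both ends also frees their neighbours. Most mitochondrial mRNAs then receive short poly(A) tails, with MT-ND6 known as an exception, and all of them encode subunits of the respiratory chain and ATP synthase, which are made together with the rRNAs and tRNAs of the mitochondrial ribosome.

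RNA-seq gene counts summed to 47105235 to 51886164 in WT libraries and 47451837 to 53795212 in K513R libraries. Levels are CPM (library-scaled counts, with TMM factors). Change was called by edgeR's quasi-likelihood test at a Benjamini-Hochberg adjusted p under 0.05, and this contrast moved most of the transcriptome: 41.5% of 30377 tested genes were higher in K513R and 36.9% lower, with a median log2 change of 0.13. Of 9 colorectal epithelium markers, 6 were lower and 1 higher in K513R, and their summed level was 10655 to 15410 CPM in WT and 2485 to 2678 CPM in K513R. KRT20 and CEACAM5 were near 0 in both genotypes. The 3 markers each of fibroblast, endothelium and blood summed to 11.8 to 17.1, 0.929 to 1.38 and 2.77 to 3.995 CPM in WT, and to 20.9 to 27.6, 3.27 to 3.84 and 6.89 to 8.47 CPM in K513R. Their part in the results was not tested. A count per gene does not show the K513R exchange itself. MALAT1 and TALAM1, annotated on opposite strands of the same stretch, had nearly equal counts (TALAM1 over MALAT1 0.913 to 0.966), so reads of the 2 strands over the same bases cannot be told apart here, and a strand named for a gene is its annotated strand.

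Together the 37 genes gave 4.28%, 4.82% and 3.38% of all gene counts in WT replicates 1 to 3, and 0.237%, 0.353% and 0.252% in K513R replicates 1 to 3. No K513R library came near the lowest WT library. Bulk RNA does not give the number of mitochondria per cell, and its part in this share was not tested. The genes did not change alike, with log2 changes from −7.18 (MT-TY) to 1.47 (MT-TP). In the poly(A) inputs described below, their share of counts in peaks was 4.46% to 5.84% in WT and 4.91% to 6.02% in K513R. All 37 genes passed the filter on low counts. Of them, 31 were lower in K513R, against 36.9% of all tested genes, 2 were higher (MT-TT and MT-TP), against 41.5%, and 4 did not pass (MT-RNR1, MT-RNR2, MT-TF and MT-TV). In the 31 genes every K513R library lay below every WT library, which held for 37.8% of all tested genes. The median log2 change of the 37 genes was −3.57, beside 0.13 over all tested genes. The count of 31 stood without any 1 of the 6 libraries.

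**Figure D1:**
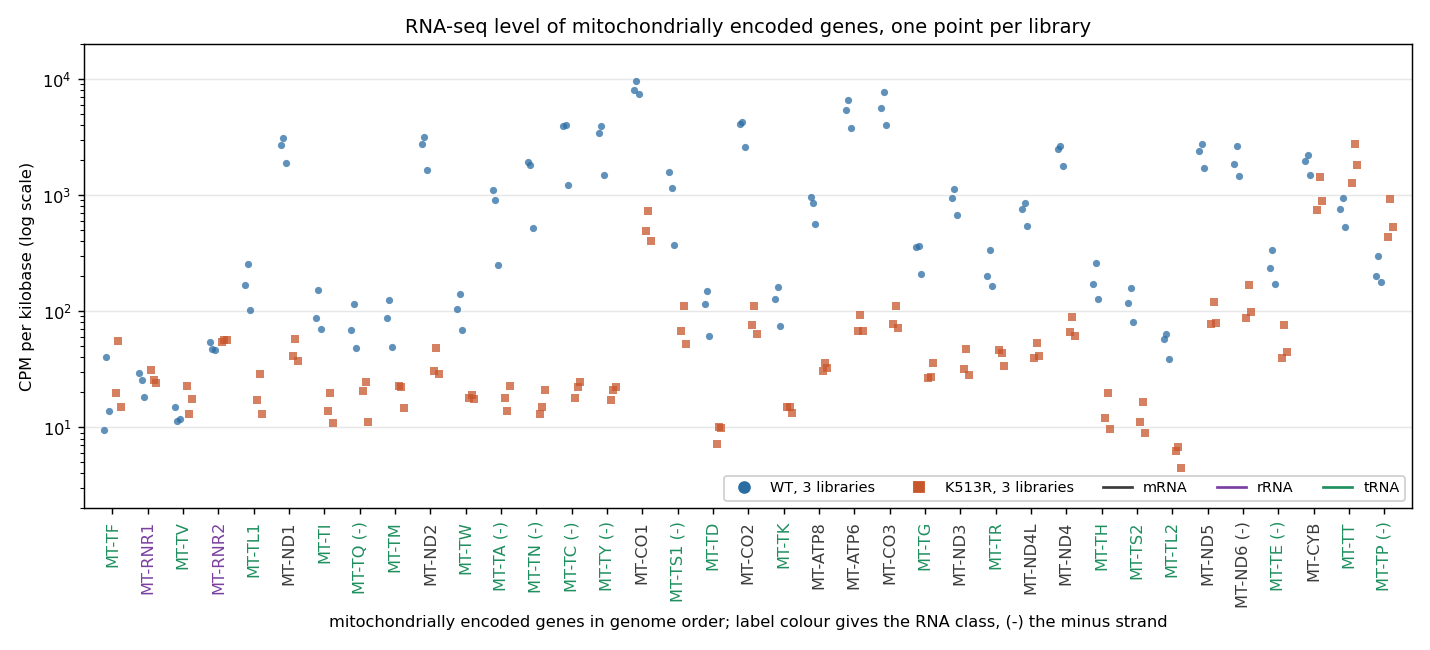
RNA-seq level of each of the 37 mitochondrially encoded genes in genome order, in CPM per kilobase of gene on a log scale, 1 point for each of 3 WT and 3 K513R libraries, with the RNA class given by the colour of the gene name and minus-strand genes marked. WT points lie far above K513R points over most of the genome, the groups mix at the rRNAs, MT-TF and MT-TV, and K513R points lie above WT points at MT-TT and MT-TP.

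All 13 mRNAs fell, with log2 changes from −0.90 for MT-CYB to −6.14 for MT-ND2 and a median of −4.68. The mRNAs with the lowest level left, relative to WT, encode subunits of 3 different complexes. MT-ND2, a subunit of complex I (NADH dehydrogenase), had 2862, 3296 and 1710 CPM in WT and 31.9, 50.3 and 29.7 CPM in K513R (log2 −6.14, SE 0.34, edgeR adjusted p 1.74e-07). MT-ATP6, the membrane subunit of ATP synthase that takes part in the proton path, had 3707, 4469 and 2590 CPM in WT and 45.9, 63.2 and 46.2 CPM in K513R (log2 −6.11, SE 0.22, edgeR adjusted p 3.85e-12). MT-CO3, a core subunit of complex IV (cytochrome c oxidase), had 4374, 6058 and 3176 CPM in WT and 60.7, 86.5 and 56.5 CPM in K513R (log2 −6.06, SE 0.28, edgeR adjusted p 2.82e-09). In each of the 3 genes the lowest WT library was replicate 3 and the highest K513R library replicate 2, and the groups lay far apart.

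The other complex I mRNAs fell with log2 changes of −5.82 (MT-ND1), −4.99 (MT-ND4), −4.68 (MT-ND3), −4.63 (MT-ND5), −4.08 (MT-ND6) and −4.01 (MT-ND4L). MT-ND4L and MT-ND4 share 7 bases. MT-CO2, the complex IV subunit that takes electrons from cytochrome c, fell by 5.46 on the log2 scale. MT-ATP8, the small partner of MT-ATP6 in ATP synthase, fell by 4.58, and 46 of its bases also belong to MT-ATP6. Reads over shared bases could be counted for either gene or for both.

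MT-CO1, the catalytic subunit of complex IV, fell less than the 2 other complex IV mRNAs. It had 12272, 14849 and 11472 CPM in WT and 749, 1128 and 623 CPM in K513R (log2 −3.95, SE 0.21, edgeR adjusted p 8.23e-11). It was the most abundant of the 37 per kilobase in WT, at 8343 ± 1145 CPM per kilobase (SD, n = 3), followed by MT-CO3 at 5786 ± 1847 and MT-ATP6 at 5269 ± 1388. The latter 2 overlap in their spread between libraries, while within each WT library MT-CO3 lay above MT-ATP6 per kilobase. No test of that order was run. In K513R MT-CO1 came after MT-TT, MT-CYB and MT-TP, at 540 ± 171 CPM per kilobase.

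MT-CYB, the only mitochondrially encoded subunit of complex III, had the smallest log2 change of the 13 mRNAs and kept 53.8% of its WT level. It had 2237, 2537 and 1699 CPM in WT and 847, 1627 and 1007 CPM in K513R (log2 −0.90, SE 0.23, edgeR adjusted p 0.00446). The highest K513R library, replicate 2, lay just under the lowest WT library, replicate 3, and without K513R replicate 2 the log2 change was −1.21. The count of MT-CYB over that of MT-ND5, its upstream neighbour among plus-strand mRNAs, was 0.511, 0.511 and 0.551 in WT and 6.01, 7.47 and 7.02 in K513R. Within the counts of the 37 genes, MT-CYB went from 5.32% ± 0.123 in WT to 39.3% ± 3.30 in K513R (SD, n = 3), while MT-CO1 made up 32.1% ± 3.74 and 28.5% ± 2.95.

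**Figure D2:**
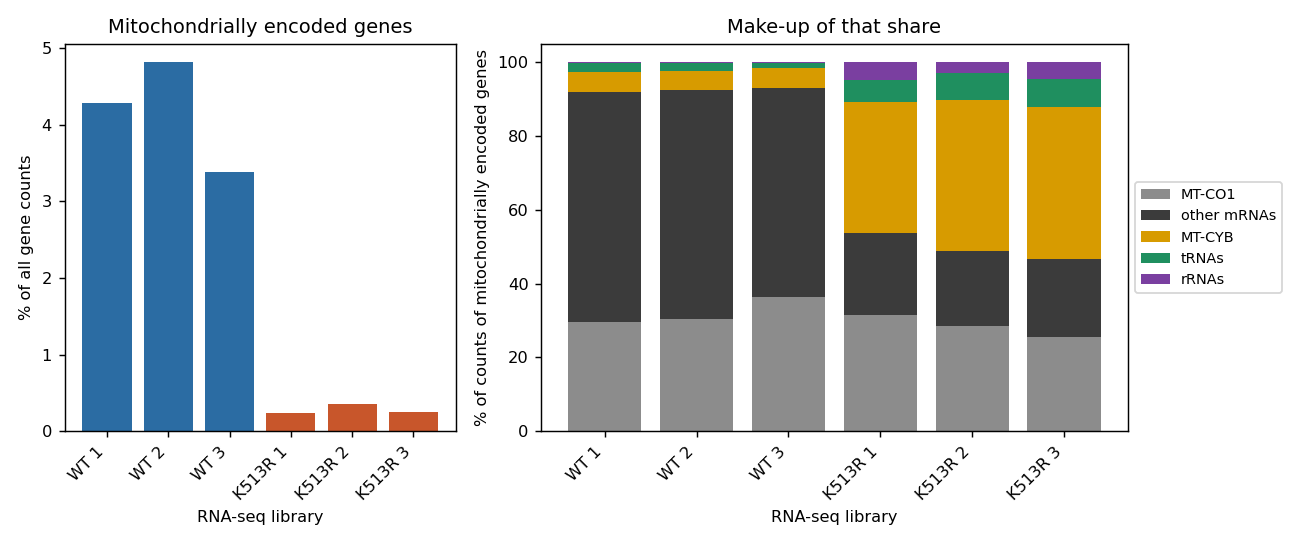
Left, the share of each RNA-seq library's gene counts held by the 37 mitochondrially encoded genes, in percent, and right, how that share divides among MT-CO1, MT-CYB, the other mRNAs, tRNAs and rRNAs, with 1 bar per library. The share is 3.38% to 4.82% in WT and 0.237% to 0.353% in K513R, and MT-CYB takes 35.5% to 41.2% of it in K513R against 5.17% to 5.39% in WT.

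Neither rRNA passed the test. MT-RNR2, the rRNA of the large mitochondrial ribosomal subunit, had 84.1, 73.2 and 71.5 CPM in WT and 83.9, 88.1 and 87.7 CPM in K513R (log2 0.18, SE 0.10, edgeR adjusted p 0.116). MT-RNR1, the rRNA of the small subunit, had 27.7, 24.2 and 17.4 CPM in WT and 29.6, 24.6 and 23.2 CPM in K513R (log2 0.16, SE 0.15, edgeR adjusted p 0.34). The groups overlapped for both. These levels are what was left after rRNA depletion, and the sources used here do not say whether the kit's probes bind mitochondrial rRNA. With upper-quartile scaling, which moved the median of all genes from 0.13 to 0.39, MT-RNR2 passed at a log2 change of 0.45, MT-RNR1 at 0.42 and MT-TV, the tRNA between them, at 0.75, beside 47.2% of all genes higher under that scaling. MT-RNR2 also passed, at 0.31, when genes under a mean of 1 CPM were left out.

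Of the 22 tRNAs, 18 fell, MT-TT and MT-TP rose, and MT-TF and MT-TV did not pass, with a median log2 change of −3.11. Counts at a tRNA gene can come from the free tRNA or from longer RNA that holds it. These were not told apart, so the changes are not levels of the finished tRNAs. The 4 genes of the 37 that did not pass are the first 4 of the plus strand in genome order, MT-TF (the tRNA for phenylalanine), MT-RNR1, MT-TV (for valine) and MT-RNR2. MT-TV had 1.03, 0.778 and 0.811 CPM in WT and 1.55, 0.895 and 1.22 CPM in K513R, and the groups overlapped. MT-TF had 0.672, 2.85 and 0.990 CPM in WT and 1.40, 3.93 and 1.06 CPM in K513R, and replicate 2 was the highest in each genotype. Its log2 change of 0.52 became 1.30, with an adjusted p of 0.0335 in edgeR, without WT replicate 2, and −0.27 without K513R replicate 2. From MT-TL1, the tRNA for leucine that follows MT-RNR2, on to MT-CYB, every gene was lower.

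The 3 deepest falls of all 37 genes were in neighbouring tRNAs of the minus strand, for tyrosine (MT-TY), cysteine (MT-TC) and asparagine (MT-TN), which adjoin a further minus-strand tRNA, for alanine (MT-TA). MT-TY had 226, 257 and 98.5 CPM in WT and 1.13, 1.39 and 1.48 CPM in K513R (log2 −7.18, SE 0.50, edgeR adjusted p 2.42e-05). MT-TC had 260, 263 and 80.6 CPM in WT and 1.17, 1.46 and 1.63 CPM in K513R (log2 −7.14, SE 0.70, edgeR adjusted p 0.000492). The log2 change was −6.45 for MT-TN and −5.38 for MT-TA. WT replicate 3 was well below the other WT libraries in all 4 genes, and the groups lay far apart.

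In WT these 4 tRNAs stood out from the plus-strand tRNA beside them. Per kilobase they had 756 (MT-TA), 1427 (MT-TN), 3046 (MT-TC) and 2938 (MT-TY) CPM in WT, and MT-TW, the tRNA for tryptophan next to MT-TA on the plus strand, had 104. In K513R they had 16.2 to 21.5 CPM per kilobase, MT-TW had 18.0 and the preceding mRNA MT-ND2 had 35.8. Thus the WT difference between these neighbours annotated on opposite strands was not seen in K513R. MT-TY over MT-CO1, the gene that follows it, was 0.0184, 0.0173 and 0.00859 by count in WT and 0.00150, 0.00124 and 0.00237 in K513R.

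The other 4 minus-strand tRNAs did not move like these. MT-TS1 (for serine), which starts right after the end of MT-CO1, had a log2 change of −3.76, beside −3.95 for MT-CO1. MT-TE (for glutamate), next to MT-ND6 on its own strand, had one of −2.21, beside −4.08 for MT-ND6. MT-TQ (for glutamine) had one of −2.05, beside −2.80 for MT-TI (for isoleucine) and −2.13 for MT-TM (for methionine), its neighbours on the plus strand. MT-TQ shares 3 bases with MT-TI, and its count was 0.711 to 1.53 times that of MT-TI and 0.804 to 1.16 times that of MT-TM over the 6 libraries. MT-TP (for proline), the last gene on the genome, rose.

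MT-TT, the tRNA for threonine just after MT-CYB, had 49.8, 62.8 and 35.3 CPM in WT and 84.4, 182 and 120 CPM in K513R (log2 1.39, SE 0.34, edgeR adjusted p 0.00976). MT-TP, next to it on the minus strand, had 13.8, 20.4 and 12.2 CPM in WT and 29.4, 63.1 and 35.7 CPM in K513R (log2 1.47, SE 0.35, edgeR adjusted p 0.00902). Every K513R library lay above every WT library in both, as in 42.5% of all tested genes, and K513R replicate 2 was the highest. Without WT replicate 1 the edgeR adjusted p was 0.0688 for MT-TT and 0.0664 for MT-TP, and without WT replicate 3 it was 0.0663 and 0.0774, so neither call stood without either of these libraries. The count of MT-TP over that of MT-TT was 0.276 to 0.348 in all 6 libraries. In K513R MT-TT ranked first of the 37 genes per kilobase, at 1953 ± 750 CPM per kilobase. MT-CYB at 1017 ± 361 and MT-TP at 628 ± 263 came next (SD, n = 3). In K513R replicates 1 to 3, MT-TT over MT-CYB was 1.72, 1.94 and 2.06 per kilobase, but 0.0997, 0.112 and 0.119 by count. MT-TT is 66 bases long, and how many of its reads also cover MT-CYB was not tested.

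The remaining plus-strand tRNAs fell over a narrower range. The 11 that fell had log2 changes from −2.13 (MT-TM) to −3.76 (MT-TH, for histidine), among them MT-TR (for arginine) at −2.49, MT-TW at −2.53, MT-TK (for lysine) at −3.08, MT-TL2 (for leucine) at −3.19, MT-TS2 (for serine) at −3.26, MT-TG (for glycine) at −3.37 and MT-TD (for aspartate) at −3.57. MT-TL1 had −3.14. Each of the 11 that lies next to an mRNA fell less than that mRNA. The 11 began lower, at 53.2 (MT-TL2) to 310 (MT-TG) CPM per kilobase in WT, beside 718 to 8343 for mRNAs. In K513R they had 5.82 (MT-TL2) to 41.5 (MT-TR), beside 32.8 to 1017 for mRNAs. MT-TL2 had 21, 23 and 16 counts in K513R, and the part of such low levels in the smaller falls was not tested. MT-TW, for instance, kept 17.3% of its WT level beside MT-ND2, and MT-TD 8.37% before MT-CO2. How many reads of a tRNA also cover its neighbours was not tested.

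**Figure D3:**
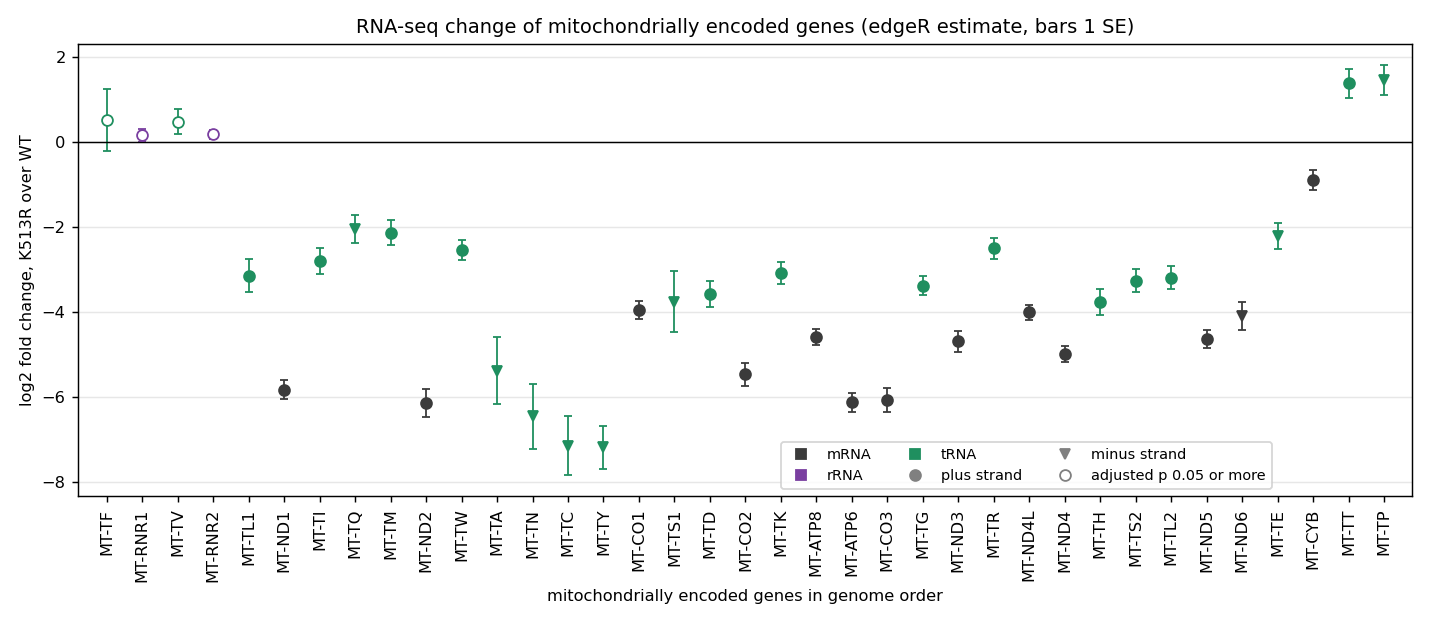
log2 change of each mitochondrially encoded gene in RNA-seq, K513R over WT, in genome order, with bars of 1 SE from edgeR, colours for mRNA, rRNA and tRNA, circles for the plus and triangles for the minus strand, and open symbols where the adjusted p was 0.05 or more. Changes are near 0 at the rRNAs, reach −6.14 in mRNAs and −7.18 in minus-strand tRNAs, and return to −0.90 at MT-CYB and above 0 at MT-TT and MT-TP.

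The 3 classes were then compared within each library, as the log2 ratio of summed counts. Such a ratio does not depend on the scaling of the libraries. Its rRNA counts are those left after rRNA depletion, and the part of depletion in the rRNA ratio was not tested. rRNA over mRNA was −8.50, −8.94 and −8.45 in WT and −4.23, −4.98 and −4.28 in K513R, a difference of 4.13. tRNA over mRNA was −5.32, −5.50 and −6.29 in WT and −3.89, −3.64 and −3.55 in K513R, a difference of 2.01. The groups did not overlap in either ratio, and with 3 libraries against 3 an exact permutation test cannot go below 0.1, so none was run. Without MT-CYB, MT-TT and MT-TP, the difference in tRNA over mRNA was 0.29, and that in rRNA over mRNA 4.89. This choice was made after the values were seen. mRNAs made up 97.8% ± 0.599 of the counts of the 37 genes in WT and 89.0% ± 0.997 in K513R, tRNAs 1.95% ± 0.617 and 6.91% ± 0.795, and rRNAs 0.250% ± 0.0450 and 4.05% ± 1.04 (SD, n = 3).

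The tRNA genes differed by annotated strand. Reads of the 2 strands over the same bases cannot be told apart here, so these sums may hold reads of both strands. Minus-strand over plus-strand tRNA counts (log2) were 2.41, 1.98 and 1.41 in WT and −1.24, −1.30 and −1.44 in K513R, so the minus-strand sum was the larger in every WT library and the smaller in every K513R library. The difference was −3.26, and −2.05 without members that overlap another gene, which drops MT-TC and MT-TY among others. Without MT-CYB, MT-TT and MT-TP it was −2.56, a choice made after the values were seen. Few genes held much of these sums. MT-TC (13923, 12148 and 4074) and MT-TY (12112, 11892 and 4977) had the most counts of the minus-strand tRNAs in WT. MT-TT had the most of the plus-strand tRNAs in K513R (3975, 8757 and 6095). Sums per library without these genes were not compared. Of the 8 minus-strand tRNAs 7 fell and 1 rose (median log2 −4.57), and of the 14 plus-strand tRNAs 11 fell, 1 rose and 2 did not pass (median −2.94). For mRNAs the log2 ratio of MT-ND6, the 1 mRNA of the minus strand, to the sum of the 12 plus-strand mRNAs was −5.33, −5.08 and −5.30 in WT and −5.52, −5.30 and −5.35 in K513R, and the groups overlapped. The sign of that small difference, −0.15, turned to 0.63 without MT-CYB.

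Nuclear DNA holds copies of mitochondrial genes, 404 of them in the count table, which can share reads with the genes themselves. The 3 with the highest mean level, MTATP6P1, MTND2P28 and MTCO1P12, lie within 1 stretch of chromosome 1 (629640 to 634376, GRCh38) and fell with their source genes. MTATP6P1 had 809, 955 and 723 CPM in WT and 12.7, 18.3 and 13.1 CPM in K513R (log2 −5.82, beside −6.11 for MT-ATP6), and its count was 21.4% to 29.0% of that of MT-ATP6 over the 6 libraries. MTND2P28 had a log2 change of −6.37 and MTCO1P12 one of −4.33. Summed over all 404 copies the level was 1739 CPM in WT and 134 CPM in K513R. Of the 67 copies tested, 29 were lower, 21 higher and 17 did not pass, beside 36.9% lower and 41.5% higher among all tested genes. The symbol search found 0 copies of the rRNA genes. The 42 copies of MT-CYB summed to 13.4 CPM in WT and 4.93 in K513R, far below MT-CYB itself.

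Of 76 nuclear genes that make, cut, modify, bind or degrade mitochondrial RNA, all tested, 42 were lower and 19 higher in K513R, beside 36.9% and 41.5% of all tested genes, and their median log2 change was −0.44, beside 0.13. The list was drawn up with earlier results of these data known. By role, 7 of 14 synthesis genes were lower and 6 higher, 4 of 7 cleavage genes lower and 1 higher, 14 of 28 base modification genes lower and 8 higher, 10 of 18 binding and stability genes lower and 4 higher, and 7 of 9 decay genes lower and 0 higher.

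Among the synthesis genes, POLRMT, the mitochondrial RNA polymerase, had 73.8, 80.6 and 94.3 CPM in WT and 25.5, 27.0 and 23.2 CPM in K513R (log2 −1.72, SE 0.12, edgeR adjusted p 3.05e-10). TFB2M, which opens the promoter for that polymerase, fell by 0.70 on the log2 scale. TFAM, which packs the DNA and starts transcription, rose by 0.72 and TEFM, the elongation factor, by 1.11. Among the cleavage genes, PRORP, the nuclease subunit of mitochondrial RNase P that cuts tRNAs at the leading end, fell by 2.23, while ELAC2, which cuts the trailing end (log2 0.14), and TRMT10C, the RNase P subunit that binds the tRNA (log2 −0.03), did not pass. With upper-quartile scaling ELAC2 passed, at 0.40 (adjusted p 0.0028 in edgeR).

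SLIRP, the partner of LRPPRC in the complex that stabilises mitochondrial mRNAs, had 228, 297 and 209 CPM in WT and 17.5, 20.3 and 15.0 CPM in K513R (log2 −3.80, SE 0.15, edgeR adjusted p 5.95e-13), the largest fall of the list. LRPPRC itself had a log2 change of −0.31 (adjusted p 0.0189 in edgeR), which was −0.042 and did not pass with upper-quartile scaling (adjusted p 0.738). Its call also did not stand without K513R replicate 1 (adjusted p 0.0507) or 2 (0.0941). The next largest falls were GRSF1, an RNA-binding protein of mitochondrial RNA granules, at −2.42, and CDK5RAP1, which modifies mitochondrial tRNAs, at −2.29. The largest rises were NGRN at 2.20 and DDX28 at 1.63, which both act in mitochondrial ribosome assembly, and FASTK, which is needed for MT-ND6 mRNA, at 1.59. Of the decay genes, PNPT1 and SUPV3L1, the nuclease and the helicase that degrade mitochondrial RNA together, had log2 changes of −1.20 and −0.95, and REXO2, which clears short RNA, had one of −1.18, and all 3 passed.

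In MeRIP-seq, counts inside all deposited peaks summed to 5025027 to 6200264 in the WT inputs and 2625446 to 4847236 in the K513R inputs. In the IP libraries the sums were 11076729 to 12491969 (WT) and 5905811 to 9198650 (K513R). K513R replicate 1 stood apart from K513R replicates 2 and 3 at many mitochondrial peaks, and values without it are given below. Of the 35 peaks, 18 came from the authors' K513R list and 17 from their WT list, and a WT peak lay at 17 of the 18 sites. The 18 sites fall on 15 genes, all 13 mRNAs, MT-RNR2 and MT-TQ, 16 sites on the plus and 2 on the minus strand. A site spanned the whole gene in 9 cases, began at the gene's first base in 12 and ended at its last base in 11. By the authors' deposited table, fold enrichment of IP over input at these peaks ran from 1.94 (MT-RNR2) to 15.4 (MT-ATP8) in the K513R list, with a median of 4.64, beside 4.58 over that whole list, and from 1.87 to 11.3 in the WT list, with a median of 4.10, beside 5.00.

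Falls of the size in RNA-seq were not seen in the poly(A) inputs. Peaks of mitochondrially encoded genes held 4.46%, 5.84% and 4.81% of the counts in non-overlapping gene peaks in WT inputs 1 to 3, and 6.02%, 5.39% and 4.91% in K513R inputs 1 to 3. At the MT-ND2 peak, which covers the whole gene, the input level was 1328, 1697 and 1387 CPM (scaled to counts in peaks) in WT and 1742, 1224 and 1184 CPM in K513R (log2 −0.09, SE 0.14, edgeR adjusted p 0.703). At the MT-ATP6 peak it was 5504, 8229 and 6345 CPM in WT and 6463, 3376 and 2770 CPM in K513R (log2 −0.67, SE 0.32, edgeR adjusted p 0.20). At both peaks K513R replicates 2 and 3 lay below every WT input, while K513R replicate 1 lay above every WT input at MT-ND2 and among them at MT-ATP6.

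Over the 18 sites, input counts were higher in K513R at 4, lower at 1 and did not pass at 13, beside 10.4% higher and 10.4% lower among 21796 tested peaks. The 4 higher sites were neighbours, 3 on MT-ND5 and the 1 on MT-ND6. At the last MT-ND5 site (bases 13762 to 14148 of the mitochondrial chromosome, GRCh38) inputs had 2151, 2960 and 2363 CPM in WT and 3651, 4285 and 3914 CPM in K513R (log2 0.66, SE 0.12, edgeR adjusted p 0.000943). At the MT-ND6 site (14149 to 14673) they had 1990, 2768 and 2284 CPM in WT and 3471, 4074 and 3571 CPM in K513R (log2 0.66, SE 0.12, edgeR adjusted p 0.00106). These 2 sites adjoin on opposite strands, and their counts were nearly equal in all 12 MeRIP libraries, at 0.912 to 1.074 MT-ND6 over MT-ND5. The strand setting of peak counting is not given, so reads at the MT-ND6 site may come from either strand. Whether its rise is separate from that of MT-ND5 was not tested. The lower site was on MT-CO3 (9613 to 9874), at a log2 change of −0.48 (adjusted p 0.0174 in edgeR). Without K513R input replicate 1, 9 sites were lower, beside 14.6% of all peaks in that fit, with log2 changes of −1.72 at MT-CO1 and −1.13 at MT-ATP6. Without K513R input 2, K513R input 3 or WT input 2 none was. The calls at the first and middle MT-ND5 sites did not stand without any 1 of K513R input 2, WT input 1 and WT input 3 (2 sites higher), and that at the first site (adjusted p 0.051) did not stand without K513R input 3.

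The genotype change in RNA-seq was then set against that in the inputs in 1 edgeR model with an assay by genotype term, for the 13 genes with peaks that do not overlap another. This test was added after the data were seen. Its scaling used only genes with peaks, so its values are not the separately fitted changes subtracted. For MT-CYB the separate log2 changes were −0.90 in RNA-seq and 0.22 in inputs. The change was lower in RNA-seq for 12 of the 13, beside 28.4% of 10585 genes in that model, and higher for 0, beside 24.5%. MT-ND2 showed the largest difference (log2 −5.64, SE 0.34, edgeR adjusted p 7.74e-11), and MT-CYB the smallest of the 12 (log2 −0.72, SE 0.27, edgeR adjusted p 0.0246). The MT-CYB call did not stand without any 1 of 6 libraries (adjusted p 0.0501 to 0.0973), those being WT RNA-seq 2, K513R RNA-seq 1 and 3, WT input 1 and 3 and K513R input 1. MT-RNR2 did not pass (log2 0.18, adjusted p 0.409). By gene, inputs were higher for MT-ND5 (log2 0.54) and MT-ND6 (0.63), beside 13.6% of 7853 genes, and lower for MT-CO3 (−0.56), beside 13.5%. The MT-ND6 values carry the limit on strands given above. The input counts cover peaks only and come from another kind of RNA and library than RNA-seq. The part of that difference, and of the samples themselves, in this result was not tested.

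**Figure D4:**
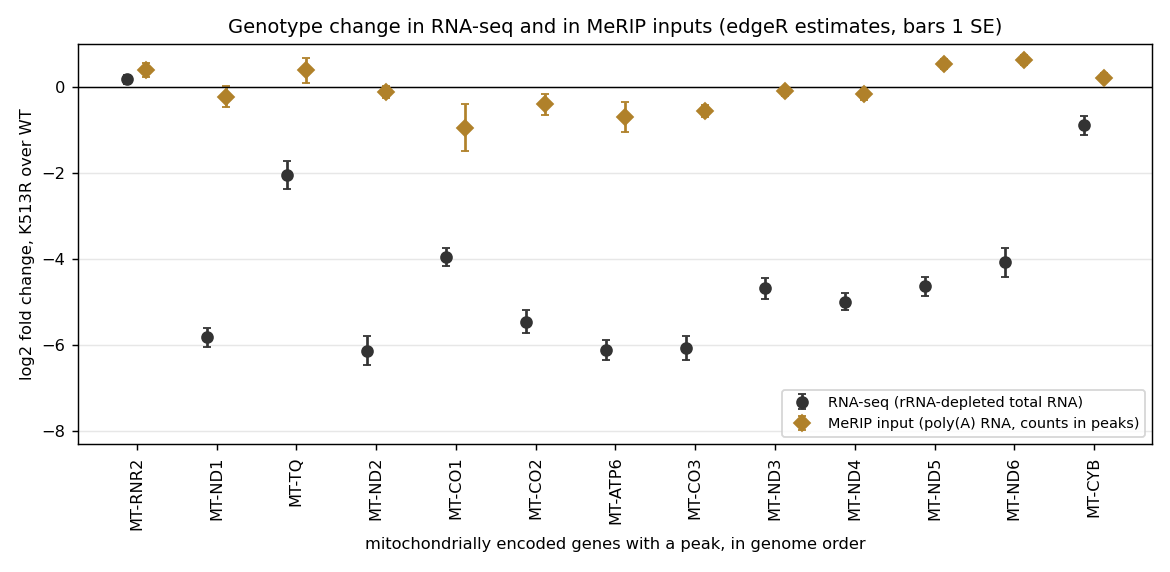
log2 change of 13 mitochondrially encoded genes, K513R over WT, in RNA-seq (circles) and in MeRIP inputs (diamonds, counts in peaks summed per gene), with bars of 1 SE from edgeR. Input changes lie between −0.94 and 0.63, RNA-seq changes between −6.14 and −0.90 except at MT-RNR2, where both are near 0.

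No site passed the planned test for a genotype difference in m6A enrichment, in which input and IP of a library were not paired. A paired fit, added after the data were seen and given below, passed 7 sites as higher, beside 16.9% of all peaks. Enrichment is log2 of IP over input per library, from CPM in peaks with 0.5 added, so 0 stands for a typical deposited peak and not for equal IP and input. In the interaction of genotype and IP, 0 of 18 sites passed at an edgeR adjusted p under 0.05, 1 had an unadjusted p under 0.05 (MT-TQ), and limma-voom also passed 0, beside 13.0% higher and 9.61% lower among 27252 tested peaks. The estimate was above 0 at 11 sites and below 0 at 7, with a median of 0.06.

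The 6 sites with the most counts come first. At MT-ATP6, log2 IP over input was 0.58, 0.72 and 0.60 in WT and 1.06, 1.43 and 1.56 in K513R (interaction 0.64, SE 0.43, edgeR adjusted p 0.313). At MT-ND4 it was 0.75, 0.98 and 0.85 in WT and 1.19, 0.81 and 0.87 in K513R (interaction 0.11). The groups were apart at MT-ATP6 and overlapped at MT-ND4. At MT-ND1 it was 0.76, 1.11 and 0.92 in WT and 1.37, 1.42 and 1.502 in K513R (interaction 0.46, SE 0.38, edgeR adjusted p 0.407). At the longer MT-CYB site (15156 to 15887) it was 0.02, 0.26 and 0.14 in WT and 0.16, −0.32 and −0.31 in K513R (interaction −0.27). Again the groups were apart at the first of these and overlapped at the second, where K513R replicate 1 lay among the WT values. At MT-ND6 it was 0.53, 0.67 and 0.40 in WT and 0.44, 0.07 and 0.20 in K513R (interaction −0.31, SE 0.22, edgeR adjusted p 0.331). At the last MT-ND5 site it was 0.34, 0.47 and 0.28 in WT and 0.31, −0.06 and 0.01 in K513R (interaction −0.28). K513R replicate 1 lay among the WT values at both, and replicates 2 and 3 below them.

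Beyond these 6, MT-ATP8 and MT-TQ were chosen after their values were seen. The strongest enrichment was at MT-ATP8, with 1.97, 2.17 and 2.10 in WT and 2.48, 2.72 and 3.06 in K513R (interaction 0.59, SE 0.42, edgeR adjusted p 0.337). MT-TQ, the only tRNA with a site and a site of the K513R list only, had −0.58, −0.44 and 0.03 in WT and 0.54, 0.89 and 0.52 in K513R (interaction 1.04, SE 0.40, edgeR adjusted p 0.0642), from 14 to 40 input counts per library. The authors' FDR of IP over input for this peak was 0.0145, the weakest of the mitochondrial peaks. At 7 sites every K513R library lay above every WT library, those of MT-ND1, MT-ND2, MT-CO1, MT-CO2, MT-ATP8, MT-ATP6 and MT-TQ, beside 22.6% of all tested peaks, and at the other 11 the groups overlapped.

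Input and IP of a library come from 1 pool of fragments. When they were paired in the model, a choice made after the data were seen, those 7 sites passed as higher, beside 16.9% of all peaks, with interactions from 0.33 (MT-ND2) to 1.05 (MT-TQ). With scaling by library size alone, 0 sites were higher, beside 6.65% of all peaks, and 3 lower, beside 14.4%. These were the last MT-ND5 site (−0.51), the longer MT-CYB site (−0.51) and MT-ND6 (−0.53). The authors' deposited table has the same 3 sites under an FDR of 0.05 for the difference between genotypes, with deposited log2 differences of −0.51, −0.51 and −0.53, beside 21.6% of all peaks in its K513R list and 20.3% in its WT list. Without K513R replicate 1, MT-ATP8 (0.79) and MT-ATP6 (0.84) passed as higher, beside 14.7% of all peaks, and the longer MT-CYB site (−0.46) as lower, beside 11.8%. Without K513R replicate 3 MT-TQ passed as higher (1.10), beside 14.3%.

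**Figure D5:**
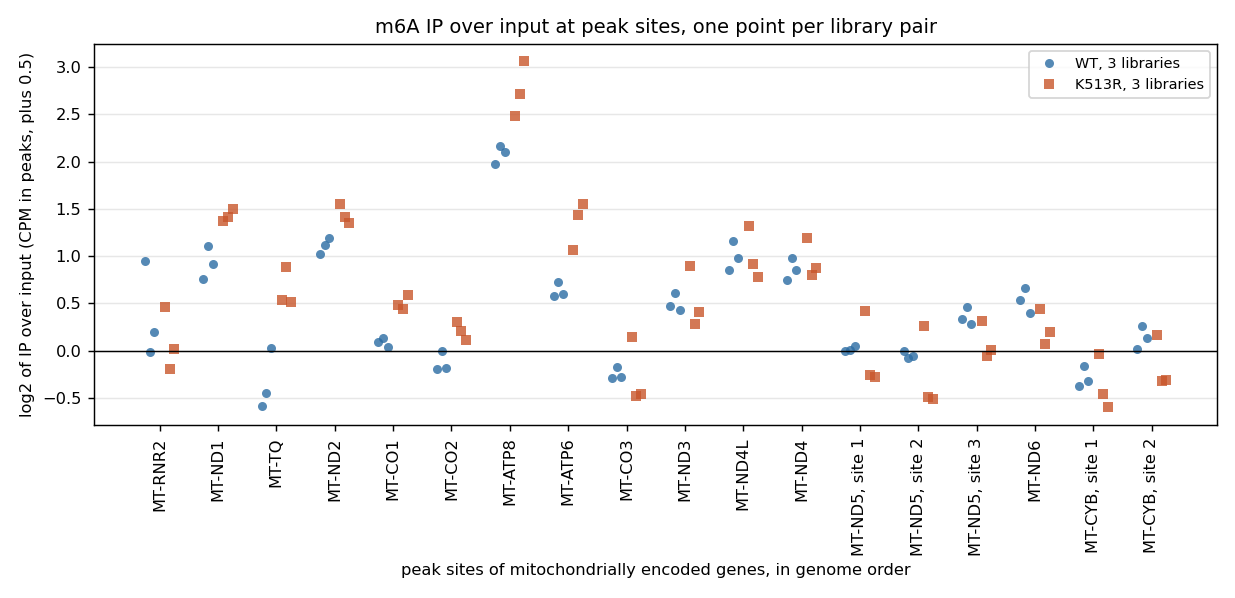
log2 of m6A IP over input at the 18 peak sites of mitochondrially encoded genes in genome order, 1 point for each of 3 WT and 3 K513R libraries, from CPM in peaks with 0.5 added. The highest values are at MT-ATP8, from 1.97 to 3.06, and the groups overlap at 11 of the 18 sites.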

How the data were processed

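Members were the rows of the RNA-seq count table whose identifier starts with MT-, and peaks were assigned by an overlap of 1 base on the same strand. Members, gene lists and tests were chosen with earlier results of these data known. The authors deposited raw counts per gene for 6 RNA-seq libraries and raw counts per peak for 12 MeRIP libraries. Per the file headers, the peak table also holds the authors' fold enrichment as a ratio, their p-value and FDR, and their log2 difference between genotypes. GRCh38, edgeR 3.12.1, featureCounts (Subread 1.5.1), Trimmomatic 0.36, deepTools and bedtools are listed in the submitters' processing notes. The sources used here do not give the aligner, the peak caller, the strand setting of counting or the treatment of reads with several matches. Deposited peak starts were raised by 1, since 2101 starts then met an exon start, against 198 as given. Groups followed the labels, and every column matched 1 sample.

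For RNA-seq, R 4.3.3 ran the robust quasi-likelihood test of edgeR 4.0.16 with filterByExpr and TMM factors (genotype as the only term, two-sided, adjusted over 30377 genes, threshold 0.05). For peaks, the genotype by IP term was tested over 12 libraries, with TMM factors within IP and within input, and inputs by genotype. Peak sites are described by the K513R list's interval. Standard errors are those of the model. Scripts were tested on simulated data with 200 changed genes. Alternatives were RLE, upper-quartile and library-size scaling, scaling without the mitochondrial genes, other low-count filters, DESeq2 1.42.0, limma-voom (limma 3.58.1), a replicate block, and leaving out each library. For peaks, a further fit kept only those with an authors' FDR under 0.01, which leaves out the MT-TQ site. Joint model, pairing of input with IP, and ratios without MT-CYB, MT-TT and MT-TP were added after the data were seen. Every member may be named. Of the nuclear list, 11 genes were always named, plus the 3 largest rises and 3 largest falls whose mean reached 5 CPM, and of the nuclear copies the 3 with the highest mean. Tables were prepared with Python 3.11.15 and pandas 2.3.3.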

Additional observations from a re-analysis of the deposited data

Results flagged for a closer look

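For 12 genes the change between genotypes differed between RNA-seq and the poly(A) inputs by a test of the difference itself (edgeR, assay by genotype). The term for RNA-seq minus input, with scaling over genes with peaks only, is given on the log2 scale. It was −5.64 for MT-ND2, −5.20 for MT-ND1, −5.11 for MT-CO3, −5.03 for MT-ATP6, −4.78 for MT-ND5, −4.66 for MT-CO2, −4.44 for MT-ND4, −4.32 for MT-ND6, −4.19 for MT-ND3, −2.61 for MT-CO1, −2.06 for MT-TQ and −0.72 for MT-CYB. In separate fits, input changes of these 12 genes ran from −0.94 to 0.63, and their RNA-seq changes from −6.14 to −0.90. Reads at the MT-ND6 site may come from either strand.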

How the results depend on the processing

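The 31 falls in RNA-seq stood under each alternative run. Upper-quartile scaling gave 5 rises in place of 2, and leaving out 1 library gave 0 to 3. Leaving out members that overlap another gene changed the class differences to 2.59 (tRNA over mRNA), 3.78 (rRNA over mRNA), −2.05 (tRNA strands) and −0.52 (mRNA strands). Medians of members gave 5.68 for rRNA over mRNA, −2.52 for tRNA strands and 1.46 for mRNA strands, and counts per kilobase gave 0.014 for mRNA strands. Without MT-CYB, MT-TT and MT-TP they were 0.29, 4.89, −2.56 and 0.63. The cause of each was not tested. At peak sites, library-size scaling gave 3 lower sites, pairing of input and IP gave 7 higher, and leaving out 1 library gave 0 to 2 higher and 0 to 1 lower. In inputs, leaving out 1 library gave 2 to 4 higher and 0 to 9 lower.

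Among results with a test, the direction turned only for those that had not passed. Upper-quartile scaling gave TRMT10C 0.23. Library-size scaling gave interactions of −0.19 (MT-CO3), −0.18 (MT-ND3), −0.20 (MT-ND4L) and −0.12 (MT-ND4), and input changes of 0.00998 (MT-ND2) and 0.027 (MT-ND3). Pairing gave MT-CO3 −0.012 and limma-voom −0.016. Leaving out 1 library, the ranges were −0.27 to 1.30 for MT-TF, −0.055 to 0.27 for MT-RNR1 and −0.22 to 0.049 for TRMT10C. For interactions they were −0.55 to 0.032 (MT-RNR2), −0.16 to 0.15 (MT-ND4L), −0.25 to 0.079 (first MT-CYB site), −0.23 to 0.17 (MT-CO3), −0.17 to 0.18 (MT-ND3), −0.043 to 0.19 (MT-ND4) and −0.29 to 0.090 (first MT-ND5 site). For inputs they were −0.30 to 0.018 (MT-ND2), −0.19 to 0.025 (MT-ND3) and −0.30 to 0.00019 (MT-ND4).

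Same-numbered RNA-seq libraries of the 2 genotypes had correlations of −0.05, 0.18 and 0.04 between their deviations, so the numbers were not taken to pair them. With the replicate block, RNA-seq gave 31 lower and 2 higher, peak sites 0 and inputs 4 higher and 1 lower. Counts of 14 to 40 limit the MT-TQ site, and K513R MeRIP values rest on fewer counts than WT.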

Other observations

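A run of 5 mitochondrial gene copies on chromosome 9, between bases 92108858 and 92111897 (GRCh38), rose in K513R while the mitochondrial genes they resemble fell. They were chosen after their values were seen. MTATP6P29 had 0.448, 0.735 and 0.990 CPM in WT and 4.03, 4.12 and 4.02 CPM in K513R (log2 2.49, edgeR adjusted p 6.25e-08). MTND3P23 rose by 2.03, MTND4P15 by 1.70, MTCO3P29 by 1.67 and MTND4LP7 by 1.63 on the log2 scale, and every K513R library lay above every WT library in all 5, beside 42.5% of all tested genes. The copies on chromosome 1 named above fell with their source genes. The rise was not particular to chromosome 9. Of the 67 copies tested, 21 were higher and 29 lower, beside 41.5% and 36.9% of all tested genes. Some rose by more from lower levels, such as MTND5P19 on chromosome 1 (log2 5.40, mean 0.0276 CPM in WT and 1.23 CPM in K513R).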
